A study of Homo sapiens with 18 samples.

Results

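RAB proteins are small GTPases that mark the membranes of the secretory and endocytic system. In the GTP-bound form a RAB recruits tethers, motors and lipid kinases to its organelle, guanine nucleotide exchange factors (GEFs) load it, GTPase-activating proteins (GAPs) switch it off, and a C-terminal geranylgeranyl anchor holds it in the membrane. GDP dissociation inhibitors (GDIs) carry the inactive form through the cytosol. In blood lineages RABs are best known for the release of lysosome-related granules from platelets and cytotoxic cells. The RAB genes were taken as all rows of the count table whose symbol is RAB, a number and at most 1 letter from A to D, which gave 63 of 27781 genes.

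The cells were K562, an established human leukemia line with a BCR-ABL1 fusion. In the knockdown group they had been transfected with antisense gapmers, which recruit RNase H, against the backsplice junction of the circular RNA circPCMTD1. The scrambled group had received scrambled gapmers, and both were collected at 48 hours. The protocols speak of gapmers, while the sample descriptions say siRNA. There were 3 biological replicates per group, each sequenced as 3 technical libraries that were summed here, so n = 3 per group throughout. Both groups come from 1 line, and the labels do not say whether replicates were separate cultures, so p-values measure the spread between these samples, which may be technical.

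Summed replicates held 63851576 to 76087774 counts. PCMTD1, the gene that hosts the target, had 12.6, 11.7 and 12.5 CPM (counts scaled to the library total) in knockdown cells, against 20.03, 19.8 and 21.9 CPM in scrambled cells. The labels call the cells lymphoblasts. All 9 erythroid and K562 markers examined were above 1 CPM in both groups, while 1 of 6 lymphoid markers (CD3D) was and MS4A1 had no count. Summed marker levels were 13787 to 14584 CPM in knockdown and 13200 to 13447 CPM in scrambled replicates for the erythroid list. They were 7.29 to 7.54 CPM in knockdown and 4.86 to 5.51 CPM in scrambled replicates for the lymphoid list. For 5 monocyte and granulocyte markers, of which LYZ made up nearly all, they were 46.0 to 47.1 CPM in knockdown and 36.4 to 38.3 CPM in scrambled replicates. The part of these shifts in the RAB values was not tested, and in bulk RNA fewer cells of a type and less RNA per cell cannot be told apart. Knockdown libraries 3_2 and 3_3 stood apart. Over 13470 genes, the deviation of a library from the others of its group correlated with transcript GC content at a Spearman rho of -0.541 and -0.618 in these, between -0.067 and 0.427 in the other knockdown libraries and between -0.432 (3_1) and 0.278 in scrambled libraries. This is a description across genes, which are not independent.

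Of 47 tested RAB genes, 8 were called raised in knockdown cells (17.0%, beside 11.1% of all tested genes). None was called lower (beside 7.49%), but 5 were with a correction on transcript GC content (beside 16.7%). The sequence before the gene start is shown for the 4 raised genes with the smallest p-values, since these are the members the results turn on. Each run is the 250 bases upstream of the first start that RefSeq lists for the gene (GRCh38.p14), written 5′ to 3′ on the strand of the gene, with matches to the searched motifs in capitals. The windows are chr19:11339658-11339907 on the minus strand for RAB3D, chr1:205775483-205775732 on the minus strand for RAB29, chr1:153986340-153986589 on the minus strand for RAB13 and chr15:65869241-65869490 on the plus strand for RAB11A. Those of RAB3D and RAB11A lie inside the span that GENCODE 29 gives the gene, which begins farther upstream.
RAB3D: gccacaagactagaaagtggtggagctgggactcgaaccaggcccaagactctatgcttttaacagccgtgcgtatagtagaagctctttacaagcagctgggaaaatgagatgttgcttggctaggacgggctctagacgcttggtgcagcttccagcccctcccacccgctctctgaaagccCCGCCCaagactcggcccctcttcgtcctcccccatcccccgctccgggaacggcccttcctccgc
RAB29: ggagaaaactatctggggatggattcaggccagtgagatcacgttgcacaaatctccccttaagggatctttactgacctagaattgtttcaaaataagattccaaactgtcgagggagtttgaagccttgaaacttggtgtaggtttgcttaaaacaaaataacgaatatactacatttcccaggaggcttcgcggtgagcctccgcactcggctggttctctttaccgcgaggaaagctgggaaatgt
RAB13: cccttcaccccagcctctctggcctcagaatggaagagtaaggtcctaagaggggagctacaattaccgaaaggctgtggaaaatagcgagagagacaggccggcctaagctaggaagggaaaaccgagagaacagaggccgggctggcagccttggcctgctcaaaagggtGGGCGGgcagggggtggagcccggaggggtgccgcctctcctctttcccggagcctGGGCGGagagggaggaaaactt
RAB11A: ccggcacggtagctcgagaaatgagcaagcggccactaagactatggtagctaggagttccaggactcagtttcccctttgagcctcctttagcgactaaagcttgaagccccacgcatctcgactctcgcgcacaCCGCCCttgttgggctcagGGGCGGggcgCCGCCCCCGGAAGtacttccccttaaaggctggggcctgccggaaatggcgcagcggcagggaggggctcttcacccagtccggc

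The capitals in RAB3D, RAB13 and RAB11A mark the GC box GGGCGG or its reverse complement, which SP1 and KLF factors bind. RAB11A also holds CCGGAAG, an ETS motif, directly beside a GC box. RefSeq windows were available for 50 RAB genes. The GC box was present in 39 of these (78.0%) and in 42.3% of 27305 gene windows of the same length, and in 6 of the 7 raised genes with a window. RAB29 was the raised gene without one, and its window had 45.2% G and C, against 59.6% in RAB3D, 61.2% in RAB13 and 62.8% in RAB11A. All motifs were read on both strands. The CLEAR core CACGTG of TFEB and TFE3 was in 5 of the 50 windows (10.0%, against 6.49% of all), and the Golgi stress element ACGTGGC, which can overlap it, in 2 (4.0%, against 2.85%). The cyclic AMP response element TGACGTCA was in 1 (2.0%, against 1.77%), the amino acid response element TGATGCAA of ATF4 in 0 (against 0.82%) and the GATA motif AGATAA in 3 (6.0%, against 9.37%). None of these 5 was in a window of a raised gene. ETS motifs were in 7 windows (14.0%, against 8.82%) and the CCAAT box in 13 (26.0%, against 33.0%), which the raised RAB8B holds. The GC box, ETS motif and CCAAT box were added to the search after the other 5 had shown no match in the raised genes, and the search was at that point limited to the first listed start of each gene, so the GC box count is a description made after the data were seen. A match describes the letters and not a bound site.

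K562 cells expressed RAB genes of every compartment. Of the 63 genes, 47 passed the filter on low counts and 33 averaged more than 10 CPM in both groups. The other 16 averaged at most 0.195 CPM in either group, among them RAB34, RAB36, RAB7B, RAB9B, RAB37, RAB44, the neuronal RAB39B and the epithelial RAB17 and RAB25. Per kilobase of exon, RAB1B, which drives transport from the ER to the Golgi, had the highest level, at 67.8 ± 2.43 CPM per kb in knockdown and 64.4 ± 0.414 CPM per kb in scrambled cells (SD, n = 3). RAB10, a regulator of exocytosis, followed at 63.7 ± 0.883 CPM per kb in knockdown and 63.2 ± 0.533 CPM per kb in scrambled cells. RAB7A, which directs late endosomes to lysosomes, had 42.4 ± 1.08 CPM per kb in knockdown and 41.3 ± 0.81 CPM per kb in scrambled cells. RAB5C, which drives early endosome fusion, had 34.8 ± 1.87 CPM per kb in knockdown and 34.3 ± 0.552 CPM per kb in scrambled cells. RAB1A came next in both groups, and the 3 values of each of these genes lay apart from those of the next in the order. The order below RAB1A had neighbours whose values overlapped, such as RAB11B and RAB31 in both groups.

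**Figure D1:**
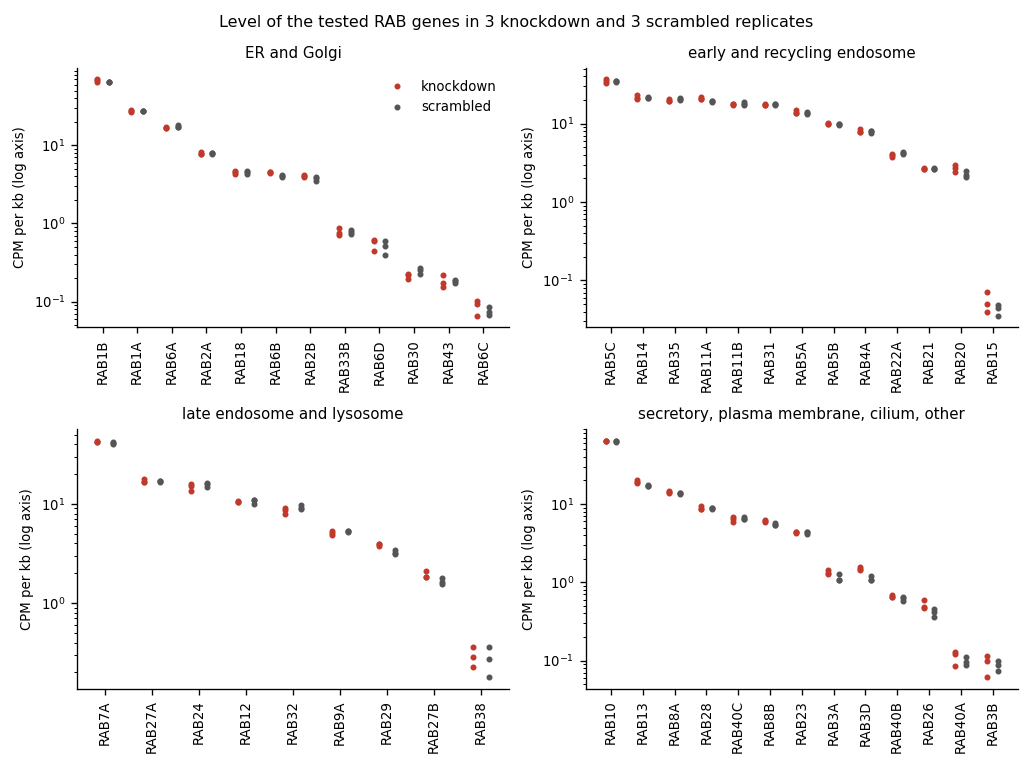
Level of each tested RAB gene in CPM per kb of exon (log axis), with 3 knockdown replicates (red, left) and 3 scrambled replicates (grey, right) as points. RAB1B and RAB10 are highest, at 63.2 to 67.8 CPM per kb on average, and the groups lie close together for nearly all genes.

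Summed per kilobase over all RAB genes, the share of each compartment differed by under 1 percentage point between groups. Secretory, plasma membrane, cilium and other RABs made up 23.6% ± 0.0512 in knockdown and 23.2% ± 0.0693 in scrambled cells (SD, n = 3). Early and recycling endosome RABs made up 32.1% ± 0.207 in knockdown and 32.4% ± 0.133 in scrambled cells, and ER and Golgi RABs 25.0% ± 0.148 in knockdown and 24.8% ± 0.133 in scrambled cells. Late endosome and lysosome RABs made up 19.3% ± 0.0823 in knockdown and 19.7% ± 0.151 in scrambled cells. The shares add up to the whole, so a rise in one lowers the others. The summed level of secretory RABs was 127.3 to 127.7 CPM per kb in knockdown and 122.7 to 123.2 CPM per kb in scrambled replicates. That of ER and Golgi RABs was 134.1 to 135.6 CPM per kb in knockdown and 130.3 to 132.7 CPM per kb in scrambled replicates. For early and recycling endosome RABs it was 172.1 to 174.5 CPM per kb in knockdown and 171.4 to 171.8 CPM per kb in scrambled replicates. The groups did not overlap in any of these classes, and 34.6% of single tested genes did not overlap either. The summed level of late endosome and lysosome RABs was 104.1 to 104.8 CPM per kb in knockdown and 103.4 to 105.7 CPM per kb in scrambled replicates. These overlapped, so their lower share was not a lower level.

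Of the 47 tested RAB genes, 8 were raised and 0 lowered by edgeR's quasi-likelihood test (adjusted p under 0.05), which called 18.6% of all 15678 tested genes. The raised genes were 17.0% of the tested RABs, beside 11.1% of all tested genes, and the lowered genes 0%, beside 7.49%. At an unadjusted p below 0.05 in edgeR, 12 RAB genes were higher and 2 (RAB22A and RAB30) lower, beside 17.0% and 14.2% of all. DESeq2 called 7 raised and 0 lowered, beside 9.57% and 8.16% of all and 17.7% in either direction. For 12 RAB genes all 3 knockdown values lay above all 3 scrambled values (18.1% of all tested genes did so), and for 1, RAB30, they lay below (16.5% of all, and 34.6% in either direction). The median log2 fold change was 0.02 for RAB genes and 0.00 for all tested genes, and RAB values ran from -0.24 (RAB30) to 0.43 (RAB3D). The whole table had 1745 raised and 1175 lowered genes, or 2322 and 2620 after a correction on transcript GC content.

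The absence of lowered RAB genes depended on the samples and the correction. With the GC correction 9 RAB genes were raised and 5 lowered, where 14.8% and 16.7% of all tested genes were, 31.5% in either direction. The added calls were RAB1B (log2 fold change 0.05) as raised and RAB22A (-0.11), RAB35 (-0.06), RAB30 (-0.26), RAB24 (-0.09) and RAB6A (-0.06) as lowered. Without knockdown libraries 3_2 and 3_3, 10 were raised and 4 lowered, beside 16.5% and 15.5% of all and 32.0% in either direction. RAB1B (0.11) and RAB8A (0.08) were then added as raised, and RAB22A (-0.14), RAB30 (-0.33), RAB31 (-0.06) and RAB6A (-0.06) as lowered. All 8 genes raised in the test on all samples were raised in both of these fits.

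**Figure D2:**
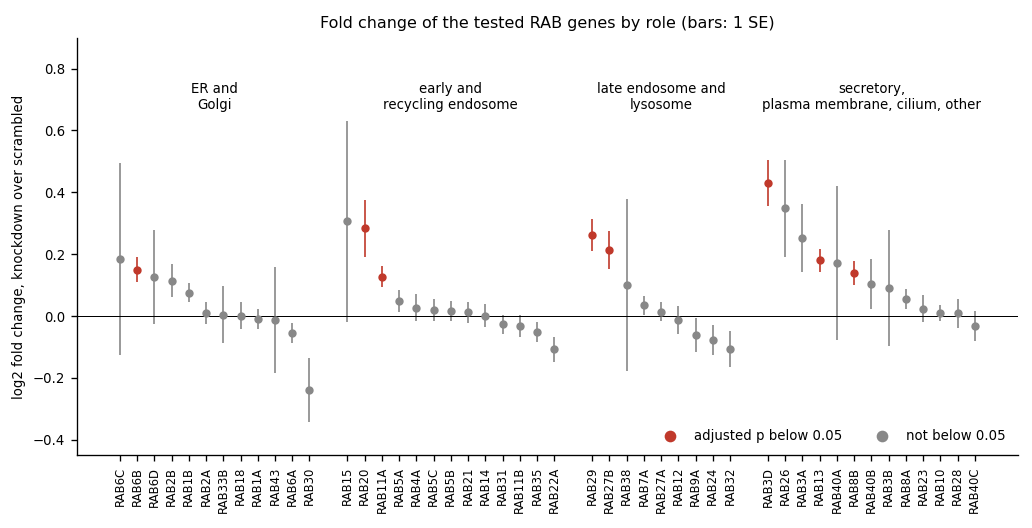
Log2 fold change of the 47 tested RAB genes, knockdown over scrambled, grouped by role, with bars of 1 SE. The 8 genes at an adjusted p below 0.05 (red) lie between 0.13 and 0.43, and RAB30 is the lowest at -0.24.

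Among ER and Golgi RABs, 1 of 12 tested genes was raised (8.33%, beside 11.1% of all tested genes). The rest did not pass, and the median log2 fold change was 0.01. RAB6B, a copy of the Golgi regulator RAB6A that is best known in brain, had 27.5, 27.5 and 26.4 CPM in knockdown replicates, against 24.7, 24.9 and 23.9 CPM in scrambled replicates. All 3 knockdown values were above all 3 scrambled values. The log2 fold change was 0.15 (SE 0.04, adjusted p = 0.0109 in edgeR). It was 0.14 without knockdown replicate 2 and 0.13 without scrambled replicate 3, where the adjusted p was 0.0515 and 0.0698. Exons of SRPRB, on the other strand, overlap those of RAB6B, and SRPRB had a log2 fold change of -0.12 (adjusted p = 0.0135).

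The most abundant members of this class did not pass. RAB1B had 140.2, 137 and 131 CPM in knockdown replicates, against 130.0, 128 and 129 CPM in scrambled replicates (log2 fold change 0.07, adjusted p = 0.095 in edgeR). All 3 knockdown values lay above the scrambled ones, the third by under 1 CPM. RAB6A, which moves vesicles from the Golgi back to the ER, had 81.3, 81.7 and 85.0 CPM in knockdown replicates, against 84.9, 84.7 and 88.1 CPM in scrambled replicates, with overlapping groups (log2 fold change -0.05). RAB30, a Golgi RAB, had the lowest fold change of all tested members, with 2.63, 2.28 and 2.59 CPM in knockdown replicates, against 3.00, 2.66 and 3.20 CPM in scrambled replicates (adjusted p = 0.114). RAB1A, RAB2A and RAB18 had log2 fold changes between -0.01 and 0.01. RAB6C and RAB6D are intronless copies whose coding sequences share 99.5% of bases with each other and about 79% with RAB6A, so the division of reads between them is uncertain, and they had 0.266 ± 0.0556 and 1.66 ± 0.279 CPM in knockdown cells, against 0.233 ± 0.0289 and 1.52 ± 0.293 CPM in scrambled cells.

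Of 13 tested early and recycling endosome RABs, RAB11A and RAB20 were raised (15.4%, beside 11.1% of all tested genes). The median log2 fold change was 0.02. RAB11A, the main RAB of the recycling endosome, had 117, 115 and 125 CPM in knockdown replicates, against 107, 110.2 and 111 CPM in scrambled replicates. The groups did not overlap, and knockdown replicate 3 was the highest. The log2 fold change was 0.13 (SE 0.03, adjusted p = 0.00967 in edgeR), 0.10 without knockdown libraries 3_2 and 3_3 and 0.11 without scrambled replicate 1, where it was not called (adjusted p = 0.0847). RAB20, a RAB of endosomes and phagosomes, had 4.55, 4.14 and 3.69 CPM in knockdown replicates, against 3.31, 3.71 and 3.17 CPM in scrambled replicates. The groups overlapped, with the lowest knockdown value just under the highest scrambled value. Its log2 fold change was 0.28 (SE 0.09, adjusted p = 0.0363 in edgeR), and DESeq2 did not call it (adjusted p = 0.112). Without knockdown replicate 1 or 2, or scrambled replicate 1 or 3, its adjusted p was 0.187, 0.0874, 0.130 and 0.149.

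The early endosome RABs did not pass the test. RAB5A, RAB5B and RAB5C had log2 fold changes of 0.05, 0.02 and 0.02, with adjusted p between 0.402 and 0.77. RAB5C had 97.2, 101 and 90.6 CPM in knockdown replicates, against 95.1, 96.2 and 93.2 CPM in scrambled replicates, so the knockdown values spanned the scrambled ones. RAB22A, which acts on early endosomes, had 34.6, 37.0 and 38.0 CPM in knockdown replicates, against 38.0, 39.5 and 40.6 CPM in scrambled replicates. Its groups overlapped slightly at 38.0 CPM, and its adjusted p was 0.067 for a log2 fold change of -0.11. RAB14, RAB21, RAB31, RAB35, RAB4A, RAB11B and RAB15 did not pass either.

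Of 9 tested late endosome and lysosome RABs, RAB29 and RAB27B were raised (22.2%, beside 11.1% of all tested genes). The median log2 fold change was 0.01. RAB29, which recruits the kinase LRRK2 to the trans-Golgi and to stressed lysosomes, had 15.5, 15.3 and 14.7 CPM in knockdown replicates, against 12.2, 12.4 and 13.3 CPM in scrambled replicates. All knockdown values were above all scrambled values, and 7 of 9 knockdown technical libraries, which are not independent, were above the highest scrambled library. The log2 fold change was 0.26 (SE 0.05, adjusted p = 0.000888 in edgeR), which lay between 0.24 and 0.30 over 17 other settings and passed in each. No annotated exon of another gene overlaps its exons (chromosome 1, 205767986 to 205775460, minus strand, GRCh38).

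RAB27B, which serves the release of platelet dense granules, had 13.6, 13.7 and 15.5 CPM in knockdown replicates, against 11.5, 12.2 and 13.3 CPM in scrambled replicates. The groups did not overlap, and replicate 3 was the highest in each. Its log2 fold change was 0.21 (SE 0.06, adjusted p = 0.0169 in edgeR), 0.17 without knockdown libraries 3_2 and 3_3, and it was not called without scrambled replicate 1 or 2 (adjusted p = 0.131 and 0.0605). RAB7A had 113, 113 and 119 CPM in knockdown replicates, against 110.5, 112 and 115 CPM in scrambled replicates, with overlapping groups (log2 fold change 0.04, adjusted p = 0.468). RAB27A, RAB12, RAB24, RAB9A, RAB32 and RAB38 had log2 fold changes between -0.11 and 0.10 and did not pass.

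Of 13 tested secretory, plasma membrane, cilium and other RABs, 3 were raised (23.1%, beside 11.1% of all tested genes). The log2 fold change was above 0 for 12 of them (median 0.10), as it was for 34 of the 47 tested RAB genes and for 7972 of all 15678 tested genes. RAB3D, of the family that controls regulated exocytosis, had 6.35, 7.03 and 6.55 CPM in knockdown replicates, against 4.70, 5.32 and 4.77 CPM in scrambled replicates. The groups did not overlap, and 8 of 9 knockdown technical libraries, which are not independent, were above the highest scrambled library. Its log2 fold change of 0.43 (SE 0.07, adjusted p = 0.000239 in edgeR) was the largest among RAB genes and lay between 0.39 and 0.49 over 17 other settings, each of which called it. Exons of TMEM205 on the same strand overlap those of RAB3D (chromosome 19, 11322046 to 11346270, minus strand, GRCh38). TMEM205 had 16.5, 15.9 and 15.8 CPM in knockdown replicates, against 12.2, 11.3 and 12.5 CPM in scrambled replicates, also a log2 fold change of 0.43. Exons of CCDC159 on the other strand overlap them too, and it had a log2 fold change of 0.27 (adjusted p = 0.1 in edgeR). Neither the treatment of shared reads nor the strand setting is given in the sources used here, so the RAB3D value is uncertain to that extent.

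RAB13, known from tight junctions and vesicle delivery, had 55.5, 53.3 and 51.5 CPM in knockdown replicates, against 46.9, 48.3 and 46.3 CPM in scrambled replicates. The groups did not overlap. Its log2 fold change was 0.18 (SE 0.04, adjusted p = 0.00106 in edgeR), between 0.15 and 0.22 over 17 other settings, and it passed in each. Its exons overlap those of AL358472.6 on the same strand, a gene not analysed here. RAB8B, a regulator of exocytosis, had 31.5, 32.2 and 30.6 CPM in knockdown replicates, against 27.7, 29.5 and 28.4 CPM in scrambled replicates. The groups did not overlap, and the log2 fold change was 0.14 (SE 0.04, adjusted p = 0.0158 in edgeR). Without knockdown replicate 2, scrambled replicate 1 or scrambled replicate 3 the adjusted p was 0.0839, 0.113 and 0.0613. RAB10, the most abundant of this class, had 229, 230.1 and 235 CPM in knockdown replicates, against 229, 228 and 232 CPM in scrambled replicates, with overlapping groups (log2 fold change 0.01).

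**Figure D3:**
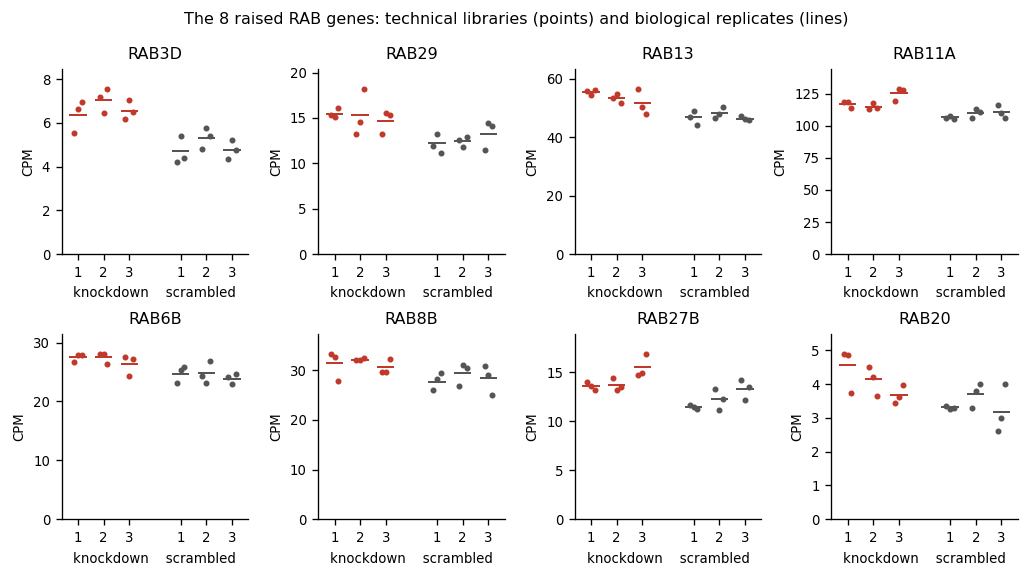
The 8 raised RAB genes in CPM, with the 9 technical libraries of each group as points and the 3 summed replicates as lines, knockdown (red) left of scrambled (grey). RAB3D and RAB13 have 8 of 9 knockdown libraries above the highest scrambled library, and RAB27B and RAB20 have 4.

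A count ratio between paralogs within a sample does not depend on how samples are scaled, and 5 pairs of a raised gene and a same-numbered relative were compared. The ratios were not corrected for transcript GC content, which differed most between RAB11A (37.2%) and RAB11B (63.5%), then between RAB8B (36.2%) and RAB8A (54.1%). Its part in the ratios was not tested. The pairs were picked after the calls were seen, and their numerators because they were raised. The ratios thus in part restate the calls and are given without a p-value. The log2 ratio of RAB6B to RAB6A was -1.61 ± 0.0696 in knockdown and -1.81 ± 0.0642 in scrambled cells (SD, n = 3), a difference of 0.21. That of RAB27B to RAB27A was -2.74 ± 0.0604 in knockdown and -2.94 ± 0.0921 in scrambled cells, a difference of 0.20. RAB11A to RAB11B gave 1.46 ± 0.0717 in knockdown and 1.31 ± 0.0871 in scrambled cells, a difference of 0.16, and RAB8B to RAB8A gave -1.24 ± 0.0168 in knockdown and -1.33 ± 0.0588 in scrambled cells, a difference of 0.09. In these 4 pairs the groups did not overlap. Of all tested genes 34.6% did not overlap in their own values, but those are not ratios and were not picked as raised. For RAB8B to RAB8A they nearly touched, with a lowest knockdown value of -1.2601 and a highest scrambled value of -1.2609. RAB3D to RAB3A gave 1.44 ± 0.174 in knockdown and 1.26 ± 0.210 in scrambled cells, with overlapping groups. RAB3A itself, a synaptic vesicle RAB, had 2.64, 2.30 and 2.42 CPM in knockdown replicates, against 2.29, 1.94 and 1.95 CPM in scrambled replicates (adjusted p = 0.12 in edgeR). The coding sequences of the pairs share 66.5% of bases (RAB27B and RAB27A) to 77.8% (RAB6B and RAB6A).

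**Figure D4:**
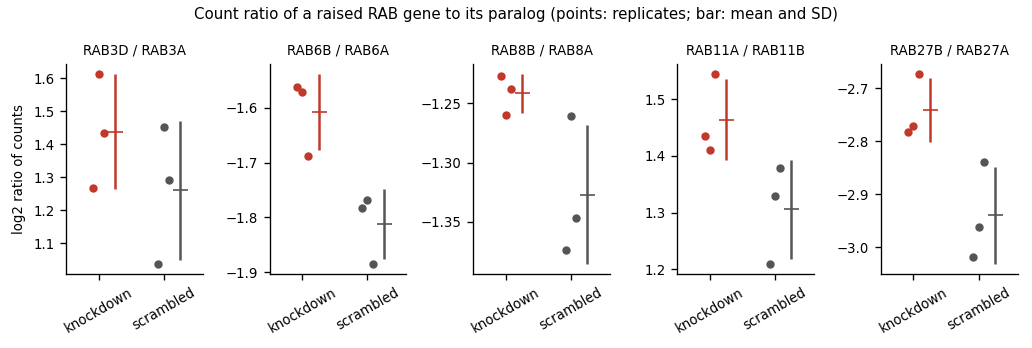
Log2 ratio of the counts of a raised RAB gene to those of its paralog in each replicate (points), with mean and SD (bars), knockdown left of scrambled. Each panel has its own axis. The groups are apart in the pairs of RAB6B, RAB11A and RAB27B, nearly touch in that of RAB8B and overlap for RAB3D and RAB3A.

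The genes that act on or with RAB proteins were counted in 7 lists of 175 genes, of which 164 were tested. Of these 27 were raised (16.5%, beside 11.1% of all tested genes) and 9 lowered (5.49%, beside 7.49%). The lists of secretory and lysosomal effectors held raised genes and no lowered ones, and the other 5 lists had both. With the GC correction 38 were raised and 25 lowered over all lists, where 14.8% and 16.7% of all tested genes were. Without knockdown libraries 3_2 and 3_3 the counts were 42 and 25, where 16.5% and 15.5% of all tested genes were called.

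Membrane anchoring and recycling genes moved both ways, with 1 raised (12.5%) and 2 lowered (25%) of 8, beside 11.1% and 7.49% of all tested genes. The median log2 fold change was -0.06. RABGGTB, the catalytic beta subunit of RAB geranylgeranyl transferase, had 123, 123 and 129.7 CPM in knockdown replicates, against 133, 135 and 133 CPM in scrambled replicates (log2 fold change -0.10, adjusted p = 0.0262 in edgeR). RABAC1, a prenylated RAB acceptor, had a log2 fold change of 0.25.

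GEFs had 5 raised (11.4%) and 2 lowered (4.55%) of 44, beside 11.1% and 7.49% of all tested genes, with a median of 0.01. The balance turned to 8 raised and 11 lowered with the GC correction, and to 10 raised and 12 lowered without knockdown libraries 3_2 and 3_3. SBF2, an exchange factor of the DENN family, had 15.2, 15.1 and 16 CPM in knockdown replicates, against 11.4, 10.9 and 11.3 CPM in scrambled replicates (log2 fold change 0.46, SE 0.05). TRAPPC1, a subunit of the TRAPP complexes that act on RAB1 and RAB11, had 0.23, and RAB3IP, the exchange factor of RAB8, had 0.17. GAPs had 4 raised (11.1%) and 2 lowered (5.56%) of 36, with a median of 0.01. TBC1D1 had a log2 fold change of 0.27, while TBC1D20, which inactivates RAB1, had -0.12 and USP6NL, which inactivates RAB5, had -0.14.

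The effector lists are set beside all tested genes, of which 11.1% were raised and 7.49% lowered. No difference between lists was tested. Golgi effectors had 2 raised (14.3%) and 1 lowered (7.14%) of 14 (median 0.03), led by BICD1, the dynein adaptor of RAB6, at -0.23. The golgins GCC2 and GOLGA5 were at 0.18 and 0.13. Endosomal effectors had 4 raised (18.2%) and 2 lowered (9.09%) of 22 (median 0.03). Among them were the RAB11 partners RAB11FIP4 at 0.30 and RAB11FIP1 at -0.08, and MICALL1 at -0.11. Lysosomal effectors and HOPS tethering genes had 4 raised (22.2%) and 0 lowered of 18 (median 0.04). At an unadjusted p below 0.05 in edgeR 5 of them were higher and 0 lower, beside 17.0% and 14.2% of all tested genes. RILPL2, a RILP-like gene whose place among lysosomal effectors was not tested, was at 0.45, and RILP itself was at 0.02. The HOPS subunit gene VPS41 was at 0.17. LRRK1, at under 1 CPM, was at 0.89, and DESeq2 and 4 of the fits without a replicate did not call it.

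Secretory effectors had 7 raised (31.8%, beside 11.1% of all tested genes) and 0 lowered of 22 (beside 7.49%), with a median of 0.09. At an unadjusted p below 0.05 in edgeR 9 of them were higher and 0 lower, beside 17.0% and 14.2% of all tested genes. EXOC4, an exocyst subunit gene, had 84.3, 83.3 and 84.6 CPM in knockdown replicates, against 75.2, 71.6 and 73.4 CPM in scrambled replicates (log2 fold change 0.20, SE 0.03). OPTN, which binds RAB8, was at 0.35 and EXOC6B, another exocyst gene, at 0.29. DESeq2 called 5 of the 22 raised and 0 lowered, the GC correction gave 10 and 1, and leaving out any single replicate gave 3 to 8 raised, with 1 lowered only without knockdown replicate 3. Among the genes named from the 7 lists, the calls of RABGGTB, RABAC1, TBC1D20, GOLGA5, RAB11FIP1, MICALL1 and LRRK1 were each lost on leaving out 1 or more single replicates, and RABGGTB and GOLGA5 passed in 11 and 10 of 17 other settings.

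**Figure D5:**
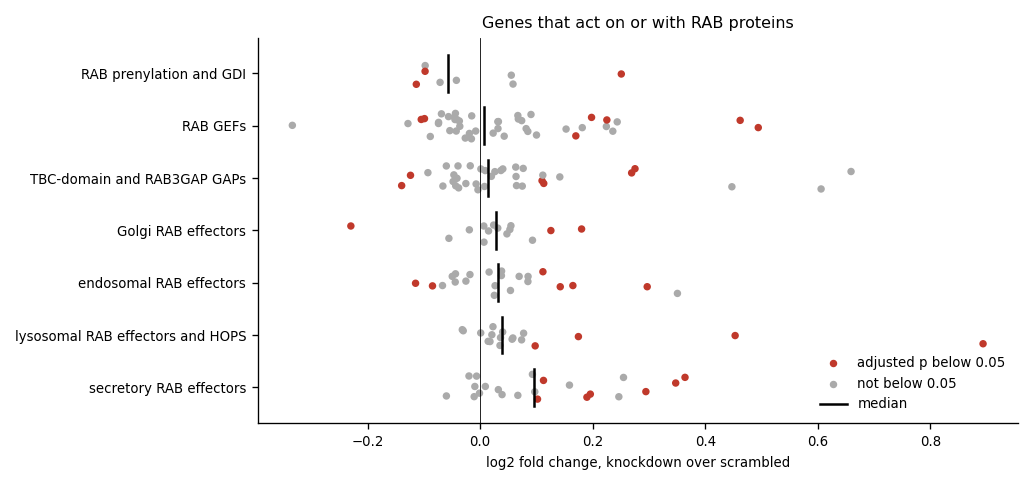
Log2 fold change, knockdown over scrambled, of each tested gene that acts on or with RAB proteins, by list, with genes at an adjusted p below 0.05 in red and the list median as a black line. Medians run from -0.06 (prenylation and GDI) to 0.09 (secretory effectors).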

How the data were processed

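The deposited table holds raw whole-number counts per gene symbol for each of 18 libraries, made by the authors with Trim Galore, STAR and featureCounts on GRCh38, per the submitters' processing notes; the sources used here give no versions, annotation or strand setting. Library totals ran from 19118533 to 29432699 counts. Technical libraries were summed by the first number in their name. The test was edgeR's robust quasi-likelihood test (edgeR 4.0.16, R 4.3.3) after filterByExpr and TMM scaling, adjusted by Benjamini-Hochberg across 15678 genes. CPM values use TMM-scaled totals, and levels per kb use the exon union of GENCODE release 29, which also gave coordinates, overlaps and, for 96.4% of tested genes, GC content (lowess span 0.3). An exact 2-sided permutation test of the paralog ratios put no pair below 0.05. With 3 against 3 samples it cannot go below 0.1, so it decides nothing here. Coding sequences were aligned with Biopython 1.88. The procedure was tested on simulated data.

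The RAB genes, roles, lists, motifs and alternatives were chosen with earlier results of these data known. Values per replicate are given for each called RAB gene, for the highest of each role and, in part, for same-numbered relatives; lists give up to 3 called genes by smallest p, of which 1 is not reported here. Other RAB genes, TMEM205 and SRPRB were named after their values were seen. Alternatives were DESeq2 1.42.0, other scaling and filters, a replicate block, GC correction, other ways to use the libraries and leaving out replicates. Same-numbered samples of the groups did not deviate together.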

Additional observations from a re-analysis of the deposited data

Results flagged for a closer look

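Over the 9 libraries of each group, 19 RAB genes named above were examined for a single library far from the others, 38 groups of libraries in all. Chance flags about 1 in 20 groups of independent values, but these are 3 technical libraries of each of 3 replicates and are not independent. There were 4. RAB6B had 24.26 CPM in knockdown library 3_2, below the 26.34 to 28.08 CPM of the other knockdown libraries. RAB27B had 16.87 CPM in knockdown library 3_3, above the 13.17 to 14.95 CPM of the others. RAB27A had 99.3 CPM in scrambled library 2_2, above 91.82 to 95.58 CPM, and RAB11B had 39.86 CPM in scrambled library 3_1, below 43.54 to 46.31 CPM. Without knockdown libraries 3_2 and 3_3 the log2 fold changes of RAB6B and RAB27B were 0.17 and 0.17, and both were called.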

How the results depend on the processing

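RAB3D, RAB29 and RAB13 were called as raised under all 17 alternatives. Among these, entering libraries singly counts technical libraries as replicates, and summing by the second number mixes the biological replicates within each sample. Neither takes the biological replicate as its unit, so their calls are not evidence on the spread between replicates. RAB genes raised numbered 4 to 11 when 1 replicate was left out (4 without scrambled replicate 1, and 5 without knockdown replicate 2 or scrambled replicate 3) and 7 to 10 otherwise. RAB genes lowered numbered 1 without a count filter, 1 with libraries entered singly, 2 with libraries summed by the second number, 5 with GC correction, 4 without knockdown libraries 3_2 and 3_3, and 0 to 2 with a replicate left out (2 without knockdown replicate 3, where RAB1B, RAB8A and RAB5C were added as raised). Pathway genes raised numbered 42 with libraries summed by the second number, 42 without libraries 3_2 and 3_3, and 13 to 40 with a replicate left out; those lowered numbered 17 with libraries entered singly, 21 summed by the second number, 25 with GC correction, 25 without libraries 3_2 and 3_3, and 2 to 20 with a replicate left out. In the whole table, raised genes numbered 1127 to 2482 with a replicate left out, and lowered genes 2036 with libraries entered singly, 2389 summed by the second number, 2620 with GC correction, 2426 without libraries 3_2 and 3_3, and 623 to 2280 with a replicate left out. With the replicate number as a block 9 RAB genes were raised and 1 lowered, and 1772 genes lowered in all; block and GC correction together gave 5 RAB genes, 25 pathway genes and 2640 genes lowered. Same-numbered samples correlated at 0.03, 0.01 and 0.01 in their deviations, so no pairing by number was seen. Deviations from means of 3 samples cannot exclude a pairing. Not every sample correlated best with its own number. The causes of these moves were not tested. Fits without a replicate have fewer samples, and genes under about 1 CPM are limited by depth.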

Other observations

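RAB4B, a RAB of fast recycling from early endosomes, had a count of 0 in all 18 libraries, and so did RAB4B-EGLN2 and MIA-RAB4B, the readthrough genes whose exons overlap it. ISY1-RAB43, the readthrough gene over the Golgi RAB gene RAB43, also had a count of 0, while RAB43 had 0.902 ± 0.163 CPM in knockdown and 0.908 ± 0.0442 CPM in scrambled cells (SD, n = 3). How reads that fall in more than 1 gene were treated is not given in the sources used here, so these zeros are not read as absent expression. RAB25, an epithelial RAB, had 21 counts over all libraries and was called raised only without a count filter. RAB26, a secretory granule RAB, had 1.499, 1.17 and 1.19 CPM in knockdown replicates, against 0.887, 1.03 and 1.13 CPM in scrambled replicates, and did not pass (adjusted p = 0.13 in edgeR).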
